A study of Mus musculus with 24 samples.

Results

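The 5 genes described here encode the TAM receptor tyrosine kinases, Mertk, Axl and Tyro3, and their protein ligands, Gas6 and Pros1. They were chosen by name from the 54532 genes of a table of read counts from mouse striatum, and 5 of 5 passed the filter on low counts, as did 19667 genes in all. There were 24 libraries, 1 per animal, from C57BL/6 mice of 4 genotypes with 6 animals each (3 male, 3 female), and each library held RNA from the frozen striatum of one hemisphere. WT animals carried neither altered allele. TyrobpKO animals carried a deletion of Tyrobp, which encodes a signalling adaptor of microglial surface receptors. Q175 animals were heterozygous for the Q175 allele, in which the CAG repeat of Htt is expanded, and model Huntington's disease. Q175_TyrobpKO animals carried both. Age is not given in the sources used here, and neither is the number of copies of Tyrobp that were deleted.

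TAM receptors are single-pass tyrosine kinases that take up dying cells, cell debris and, in the brain, synaptic material, and that restrain innate immune signalling. They do not touch phosphatidylserine themselves. Gas6 and Pros1 bridge the gap: a vitamin K-dependent carboxylated domain binds phosphatidylserine exposed on the target, and the other end of the ligand binds the receptor. Gas6 binds Mertk, Axl and Tyro3, whereas Pros1, the anticoagulant protein S of blood, acts mainly on Mertk and Tyro3. In the brain Mertk is known from microglia and astrocytes, Axl from microglia in reactive states and from vascular cells, and Tyro3 mainly from neurons.

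Libraries held 25.5 to 34.6 megareads in genes. Tyrobp fell from 7.88 ± 1.15 CPM (counts scaled to the library's total; SD, n = 6) in WT to 0.341 ± 0.0926 CPM in TyrobpKO, and stood at 0.260 ± 0.0423 CPM in Q175_TyrobpKO, so the libraries carried the deletion that their labels name. Of 10 markers of striatal projection neurons, none was at 0 in any group, and their summed level ran from 3824 to 10771 CPM over the 24 libraries. Q175 replicate 3 stood apart through choroid plexus and ependyma markers, and summed markers of cortical excitatory neurons varied from 31.9 to 900 CPM between libraries. The animal numbers in the labels bear prefixes. All 12 animals with the deletion share one prefix, while the 6 Q175 animals share theirs with WT replicate 3 only, so what a prefix marks cannot be told apart from genotype in part of Q175 against WT. In TyrobpKO against WT and in Q175_TyrobpKO against Q175 it cannot be told apart from the deletion at all. All animals of Q175_TyrobpKO against TyrobpKO share it.

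The 2 genes of the group that passed the test in some comparison, Mertk and Pros1, are shown by their promoters, as RefSeq gives them for GRCm38.p6: 300 bases, from 250 before to 50 after the start of the gene, 5′ to 3′ on the plus strand, at chr2:128698665-128698964 for Mertk and chr16:62854057-62854356 for Pros1. Capitals mark the GC box, GGGCGG or its reverse complement CCGCCC.
Mertk: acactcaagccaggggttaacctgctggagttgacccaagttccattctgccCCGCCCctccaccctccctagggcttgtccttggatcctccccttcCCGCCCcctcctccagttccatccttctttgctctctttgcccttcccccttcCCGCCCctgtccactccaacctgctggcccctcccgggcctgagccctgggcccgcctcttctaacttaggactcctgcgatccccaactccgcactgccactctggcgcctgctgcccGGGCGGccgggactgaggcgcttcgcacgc
Pros1: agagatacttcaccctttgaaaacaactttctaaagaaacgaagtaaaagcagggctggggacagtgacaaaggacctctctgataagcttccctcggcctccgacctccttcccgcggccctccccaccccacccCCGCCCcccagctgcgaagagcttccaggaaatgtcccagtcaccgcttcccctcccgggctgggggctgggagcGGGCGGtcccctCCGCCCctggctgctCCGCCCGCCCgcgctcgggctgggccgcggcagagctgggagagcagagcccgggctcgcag
The Mertk window held 4 GC boxes and the Pros1 window 5, counted on both strands with overlapping matches included. The windows of Axl, Tyro3 and Gas6 held 2, 6 and 4. A GC box lay in 35.7% of 32851 promoters of the same length, a set that did not cover every chromosome. None of the 5 windows held TATAAA, found on either strand in 13.6% of these promoters, or CCAAT, found in 37.4%. These matches describe the letters of the windows only.

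Tyro3 was the most abundant receptor transcript in striatum and Gas6 the more abundant ligand. Divided by the exon length of the gene, so that genes can be set side by side, the level over 24 libraries was 39.8 ± 3.47 CPM per kilobase for Tyro3, 8.82 ± 0.649 for Axl and 8.62 ± 0.971 for Mertk (SD, n = 24). Gas6 stood at 31.4 ± 2.87 CPM per kilobase and Pros1 at 3.16 ± 0.455. Tyro3 exceeded Gas6 in 23 of 24 libraries, the exception being Q175 replicate 3, and Pros1 was the lowest of the 5 in all 24. Over all libraries Axl and Mertk were neighbours that did not differ beyond their spread, with Axl above Mertk in 15 libraries and Mertk above Axl in 9. The order went with genotype, Axl being above Mertk in every carrier of the Q175 allele. The ratio of Axl to Mertk per kilobase ran from 1.005 to 1.26 in Q175 and 1.005 to 1.15 in Q175_TyrobpKO. It ran from 0.864 to 1.22 in WT and 0.898 to 1.02 in TyrobpKO. Tyro3 made up 65.4% to 74.0% of the summed receptor level per kilobase, and Gas6 87.7% to 92.8% of the summed ligand level. Because the tissue was sequenced in bulk, fewer cells of a type and less RNA per cell cannot be told apart in any of these levels.

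**Figure D1:**
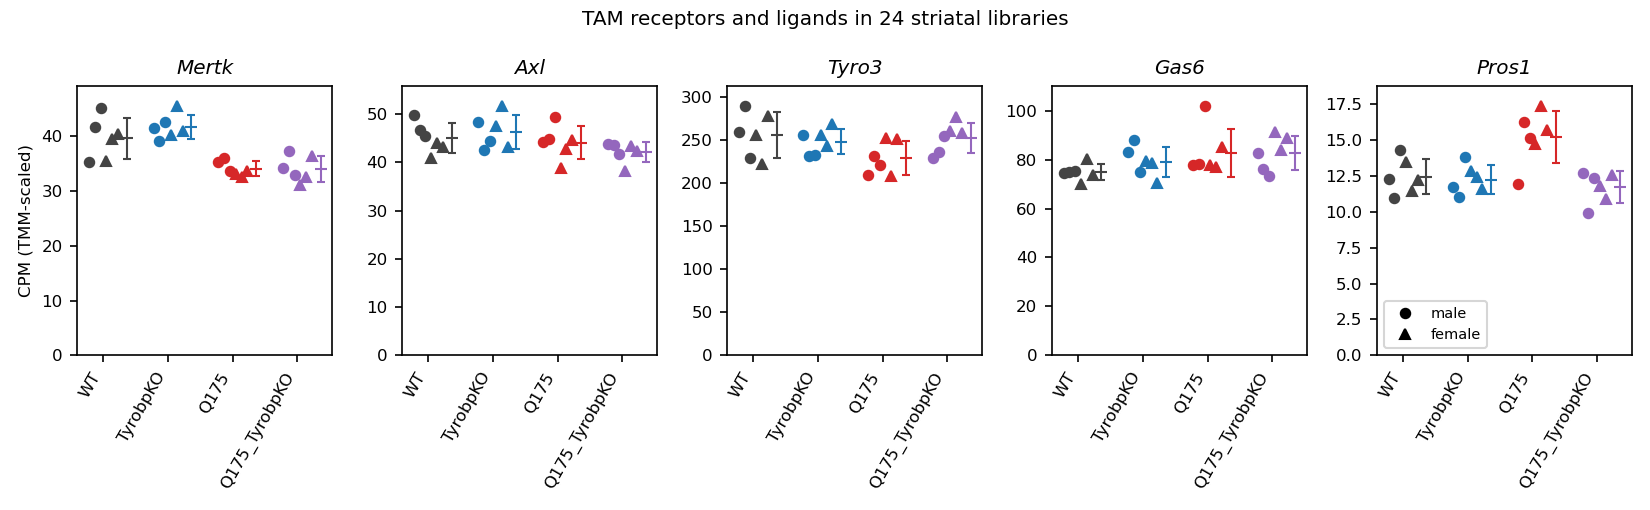
CPM of each gene in each of 24 libraries, by genotype, on linear axes from 0; circles are males, triangles females, and the bars beside the points give the mean ± SD of 6 libraries. The Mertk points of both Q175 genotypes lie low, between 31.1 and 37.3 CPM, and 5 of 6 Pros1 points of the Q175 genotype lie above those of every other library.

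Mertk, the receptor best known for engulfment of apoptotic cells, fell with the Q175 allele whether or not Tyrobp was present. It is encoded at chr2:128698956-128802894 (GRCm38, plus strand; ENSMUSG00000014361). In WT the lowest, median and highest Mertk levels were 35.3, 40.0 and 45.2 CPM, and in Q175 they were 32.5, 33.7 and 36.1 CPM. In TyrobpKO they were 39.2, 41.3 and 45.6 CPM, and in Q175_TyrobpKO 31.1, 33.5 and 37.3 CPM. The groups of Q175 and WT overlapped, because WT replicates 1 and 4 were low, but 5 of 6 Q175 libraries lay below every WT library. Those of Q175_TyrobpKO and TyrobpKO did not overlap, a pattern shown by 4.49% of all genes tested in that comparison. Of the 12 carriers of the allele, 9 lay below the lowest of the 12 other libraries.

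The fold changes of Mertk were small. In Q175 against WT the log2 fold change was -0.22 ± 0.06 (SE), a change of -14.0% with a 95% interval of -21.1% to -6.24% (adjusted p = 0.0204 by edgeR with Benjamini-Hochberg adjustment). Mertk and Pros1 were the 2 of 5 genes called in that comparison, at an adjusted p under 0.05, against 9.63% of all genes tested. In Q175_TyrobpKO against TyrobpKO it was -0.29 ± 0.06 (-18.3%, interval -25.1% to -11.0%; edgeR adjusted p = 0.00343), and Mertk was the 1 of 5 called, against 5.86% of all genes. Averaged over both Tyrobp genotypes, with 12 carriers against 12 others, it was -0.25 ± 0.04 (edgeR adjusted p = 8.68e-05), again the 1 of 5 called, against 18% of all genes. The effect without Tyrobp minus that with it was -0.07 ± 0.09 (log2; edgeR adjusted p = 0.999). The call in Q175 against WT was lost without WT replicate 2 (edgeR adjusted p = 0.0565) or WT replicate 3 (0.0800), the WT animal with the prefix of the Q175 animals. It was also lost with scaling to library size alone (0.0648) and in a fit of the compared libraries alone (0.0529), whereas that in Q175_TyrobpKO against TyrobpKO remained without each library in turn. Fitted on males or on females alone, Mertk was not called in either comparison (edgeR adjusted p from 0.0773 to 0.339). In a joint fit with a mean per genotype and sex it was called in females of Q175_TyrobpKO against TyrobpKO (-0.34, edgeR adjusted p = 0.0345) and not in males (-0.24, 0.262), but the difference between the sexes was not called (adjusted p = 0.960).

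Mertk was not called for the deletion of Tyrobp on either background. TyrobpKO against WT gave 0.07 ± 0.06 (edgeR adjusted p = 0.809), and Q175_TyrobpKO against Q175 gave -0.00050 ± 0.06 with an interval of -0.13 to 0.12 (edgeR adjusted p = 0.999). Both carrier groups thus had a mean of 34.1 CPM, with SD 1.35 in Q175 and 2.36 in Q175_TyrobpKO. Set against WT directly, Q175_TyrobpKO had -0.22 ± 0.06 (edgeR adjusted p = 0.0201), the 1 of 5 genes called there, against 9.44% of all genes. This last call was lost without WT replicate 2, WT replicate 3 or Q175_TyrobpKO replicate 4, with scaling to library size alone (edgeR adjusted p = 0.0672), with the compared libraries alone (0.0577), in males (0.211) and in females (0.345).

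Markers of several cell types moved with Mertk, those of astrocytes most closely. In the summed level of 10 astrocyte markers, Slc1a2, the main glutamate transporter, took the largest share. The sum ran from 4741 to 5154 CPM in WT and 4851 to 5280 CPM in TyrobpKO. It ran from 3696 to 4389 CPM in Q175 and 3960 to 4305 CPM in Q175_TyrobpKO. With Slc1a2 included, no carrier reached the range of the other libraries, and none of the 10 markers was at 0 in any group. Of the 10, 3 (30%) were called lower in each Q175 comparison and none higher, against 9.63% and 5.86% of all genes called. Without Slc1a2 the sum ran from 1851 to 1986 CPM in WT and 1802 to 2133 CPM in TyrobpKO, and from 1610 to 1845 CPM in Q175 and 1581 to 1783 CPM in Q175_TyrobpKO, so that carriers then reached into the range of the other libraries. The summed level of 12 microglial markers ran from 389 to 450 CPM in WT and 401 to 459 CPM in Q175, and from 327 to 447 CPM in TyrobpKO and 356 to 420 CPM in Q175_TyrobpKO, with overlap in both. None of the 12 was at 0 in any group. In Q175 against WT 4 of the 12 had a negative log2 fold change, and in Q175_TyrobpKO against TyrobpKO 11, with 0 called in either. In the same comparisons 1 of 8 (12.5%) and 2 of 8 (25%) endothelial markers were called lower. Of 7 mural markers 0 and 1 were called lower, and of 7 oligodendrocyte markers 0 and 2. Of 10 markers of striatal projection neurons 9 and 5 were called lower. Over all genes 9.63% and 5.86% were called in either direction. Over the 24 libraries, the Pearson correlation (r) of log2(CPM + 0.5) of Mertk with summed astrocyte markers was 0.84. For markers of other cell types it ran from -0.52 (blood) to 0.70 (mural cells). It was 0.69 for striatal projection neurons, 0.61 for endothelial cells and 0.17 for microglia. Once genotype and sex means were removed, r was 0.36 for astrocytes and highest for microglia, at 0.46. The part of these cell types in the Mertk result was not tested.

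**Figure D2:**
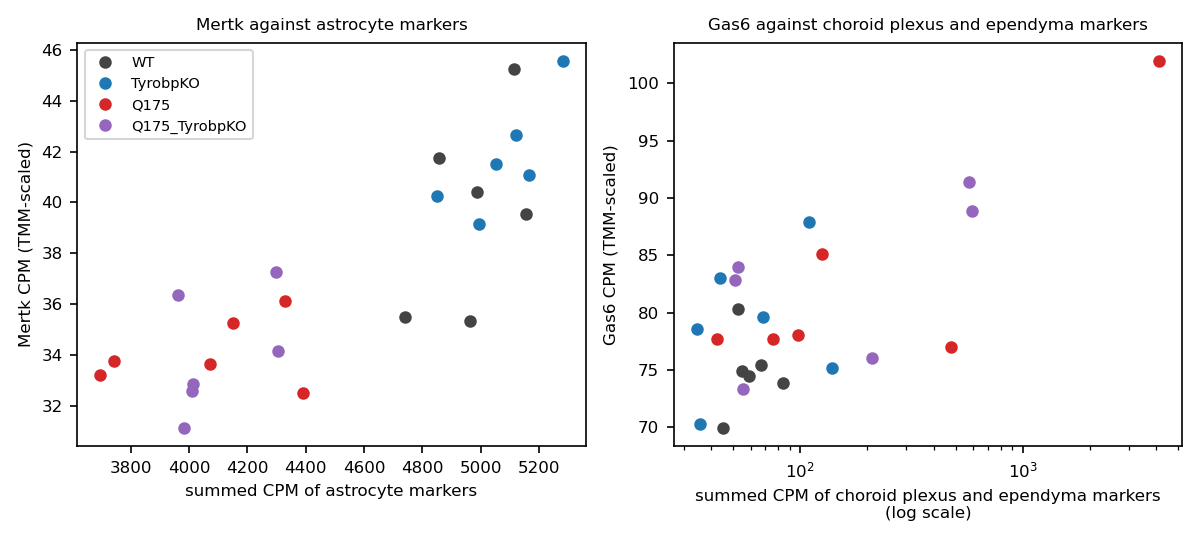
Left, Mertk (CPM) against the summed CPM of 10 astrocyte markers; right, Gas6 (CPM) against the summed CPM of 6 choroid plexus and ependyma markers on a log axis; each point is 1 of 24 libraries, coloured by genotype. On the left the carriers of the Q175 allele lie at sums up to 4389 CPM and the other libraries at 4741 CPM or more; on the right Q175 replicate 3 lies alone at 4100 CPM.

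Axl, the receptor that responds to interferon and that Gas6 alone of the ligands engages well, was not called in any comparison. It lies at chr7:25757273-25788705 (GRCm38, minus strand; ENSMUSG00000002602). The lowest, median and highest levels were 40.9, 44.7 and 49.8 CPM in WT, and 42.5, 46.0 and 51.7 CPM in TyrobpKO. They were 38.8, 44.4 and 49.4 CPM in Q175, and 38.2, 43.0 and 43.9 CPM in Q175_TyrobpKO. All 4 groups overlapped, with the last the narrowest. Axl gave -0.03 ± 0.06 in Q175 against WT (edgeR adjusted p = 0.821) and -0.14 ± 0.06 in Q175_TyrobpKO against TyrobpKO (edgeR adjusted p = 0.205). The intervals were -0.15 to 0.09 and -0.26 to -0.01.

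Axl shares chromosome 7 with Tyrobp, 4.63 Mb away. Of the 23 genes called in TyrobpKO against WT (0.117% of all tested), 21 lay on that chromosome, and they include 7 of the 122 genes tested between Axl and Tyrobp. None of the 5 TAM genes was among the 23, and by DESeq2, limma-voom or at an unadjusted p under 0.05 (6.45% of all genes) the count was also 0. The log2 fold change of Axl was 0.04 ± 0.06 (edgeR adjusted p = 0.890). Its nearest tested neighbours, Hnrnpul1 and Cyp2s1, had 0.04 and -0.10 (edgeR adjusted p = 0.898 and 0.889). The called gene nearest to Axl was Lgals4, 3.05 Mb away, at -1.24 ± 0.24 (edgeR adjusted p = 0.0183).

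**Figure D3:**
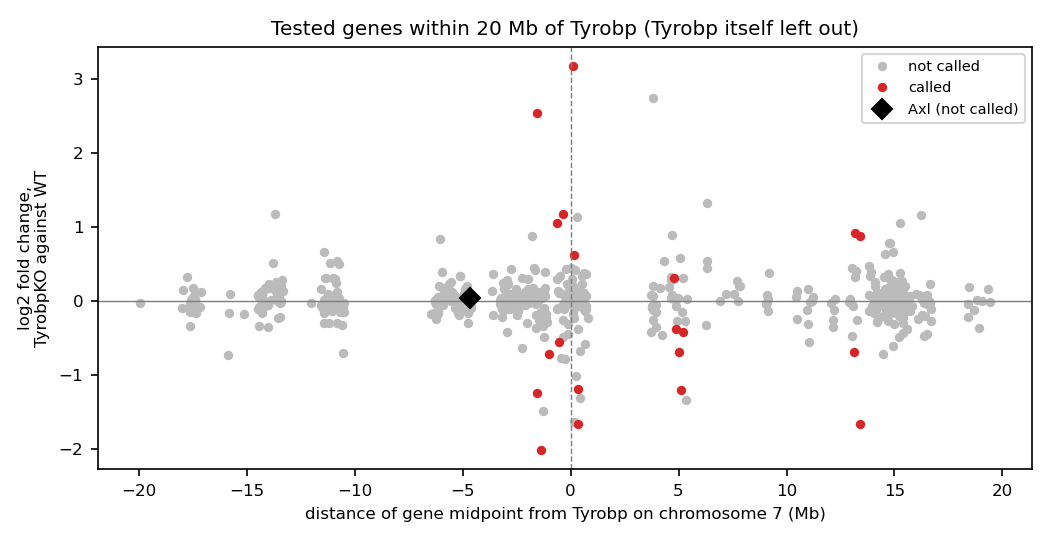
Log2 fold change in TyrobpKO against WT of each tested gene within 20 Mb of Tyrobp on chromosome 7, by the distance of its midpoint from Tyrobp; red points were called, grey points were not, and the black diamond is Axl. Axl lies at 0.04, on the side of Tyrobp where the nearest called gene is 3.05 Mb from it.

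Tyro3, the receptor mainly of neurons, was not called in any comparison. It lies at chr2:119797733-119818104 (GRCm38, plus strand; ENSMUSG00000027298). The lowest, median and highest levels were 222, 258 and 290 CPM in WT, and 208, 226 and 253 CPM in Q175. They were 232, 250 and 268 CPM in TyrobpKO, and 229, 257 and 277 CPM in Q175_TyrobpKO. Q175 was the low group, but its range overlapped each of the others. Q175 against WT gave -0.16 ± 0.06 (log2 fold change; edgeR adjusted p = 0.121, unadjusted p = 0.0192). It passed only when WT replicate 5 was left out (edgeR adjusted p = 0.0350). In Q175_TyrobpKO against TyrobpKO it was 0.03 ± 0.06 (edgeR adjusted p = 0.885), and the difference between these effects was 0.19 ± 0.09 (edgeR adjusted p = 0.999, unadjusted p = 0.0506). Over the same libraries, 9 of 10 markers of striatal projection neurons were called lower in Q175 against WT and 5 of 10 in Q175_TyrobpKO against TyrobpKO. Among all genes 9.63% and 5.86% were called there in either direction.

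Gas6, the ligand of all 3 receptors, was not called in any comparison, and its spread in Q175 rested on 1 library. It lies at chr8:13465374-13494490 (GRCm38, minus strand; ENSMUSG00000031451). Gas6 levels were 70.0, 74.7 and 80.3 CPM in WT and 76.97, 77.9 and 102 CPM in Q175 (lowest, median and highest). They were 70.3, 79.1 and 87.9 CPM in TyrobpKO, and 73.4, 83.4 and 91.4 CPM in Q175_TyrobpKO. The ranges overlapped in every pair of groups. Gas6 gave 0.15 ± 0.07 in Q175 against WT (edgeR adjusted p = 0.196) and 0.07 ± 0.07 in Q175_TyrobpKO against TyrobpKO (edgeR adjusted p = 0.685). The library at 102 CPM was Q175 replicate 3, whose 6 choroid plexus and ependyma markers summed to 4100 CPM, against 34.4 to 593 CPM in the other libraries. Next in these sums came Q175_TyrobpKO replicates 6 and 4 (593 and 572 CPM), with Gas6 at 88.9 and 91.4 CPM. Q175 replicate 5, at 479 CPM, had the lowest Gas6 of its group. Over the 24 libraries, the Pearson correlation of log2(CPM + 0.5) of Gas6 with the sum was 0.69. It was 0.55 once genotype and sex means were removed. Without Q175 replicate 3 Gas6 had 0.08 ± 0.06 in Q175 against WT (edgeR adjusted p = 0.517). Whether those cells carried the Gas6 reads was not tested.

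Pros1 rose with the Q175 allele where Tyrobp was present. It lies at chr16:62854307-62929346 (GRCm38, plus strand; ENSMUSG00000022912) and had 291 to 472 reads per library, the fewest of the 5 genes. The lowest, median and highest Pros1 levels were 10.98, 12.3 and 14.3 CPM in WT, and 11.97, 15.4 and 17.4 CPM in Q175. They were 11.02, 12.1 and 13.8 CPM in TyrobpKO, and 9.94, 12.1 and 12.7 CPM in Q175_TyrobpKO. Of the 6 Q175 libraries, 5 lay above the highest of the other 18, and Q175 replicate 1, at 11.97 CPM, lay among them. The log2 fold change in Q175 against WT was 0.29 ± 0.09 (22.1%, interval 7.54% to 38.7%; edgeR adjusted p = 0.0384). It was called in 16 of the 24 fits that left out 1 library, and lost without WT replicate 1, 2, 5 or 6 or Q175 replicate 2, 3, 5 or 6, at edgeR adjusted p from 0.0653 to 0.104. It was also lost without the filter on low counts (0.0948) and in fits of the compared libraries alone (0.0945), of males (0.538) and of females (0.175).

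In Q175_TyrobpKO against TyrobpKO the log2 fold change of Pros1 was -0.06 ± 0.09 (edgeR adjusted p = 0.787). The difference between the Q175 effects without and with Tyrobp was -0.35 ± 0.13 (edgeR unadjusted p = 0.0103, adjusted p = 0.999), so that a dependence on Tyrobp was not called. No gene was called for that difference (0% of all tested by edgeR), with 707 genes (3.59%) at an unadjusted p under 0.05, 2 called by DESeq2 and 0 by limma-voom. Q175_TyrobpKO against Q175 gave -0.38 ± 0.09 for Pros1 (interval -0.56 to -0.19; edgeR adjusted p = 0.118, unadjusted p = 0.000264). By edgeR 0 of the 5 genes were called there, against 0.158% of all genes, and 2 of 5 had an unadjusted p under 0.05, as had 6.04% of all genes. DESeq2 called Pros1 (adjusted p = 0.0235), limma-voom called 0 of the 5, and edgeR called Pros1 without Q175 replicate 1 (adjusted p = 0.0173).

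Over the 24 libraries, the Pearson correlation of log2(CPM + 0.5) of Pros1 was 0.65 with summed microglial markers and -0.46 with summed cortical markers. It was 0.49 and -0.53 once genotype and sex means were removed. Single libraries did not all follow this direction. Q175 replicate 1 had the lowest summed microglial markers of its group, 401 CPM against 432 to 459 CPM in the other 5 libraries, and the highest cortical markers, 756 CPM against 42.7 to 469 CPM. In Q175_TyrobpKO the library highest in Pros1, replicate 1 at 12.7 CPM, had the highest cortical markers (856 CPM). The lowest, replicate 2 at 9.94 CPM, had 396 CPM of microglial markers, second only to replicate 6. Replicate 6 had 420 CPM of microglial markers, the lowest cortical markers (31.9 CPM) and 12.6 CPM of Pros1. In Q175_TyrobpKO against Q175, 12 of 12 microglial markers had a negative log2 fold change, with a median of -0.22 against -0.0013 over all genes tested. By edgeR 0 of the 12 were called. The part of either cell type in the Pros1 values was not tested.

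**Figure D4:**
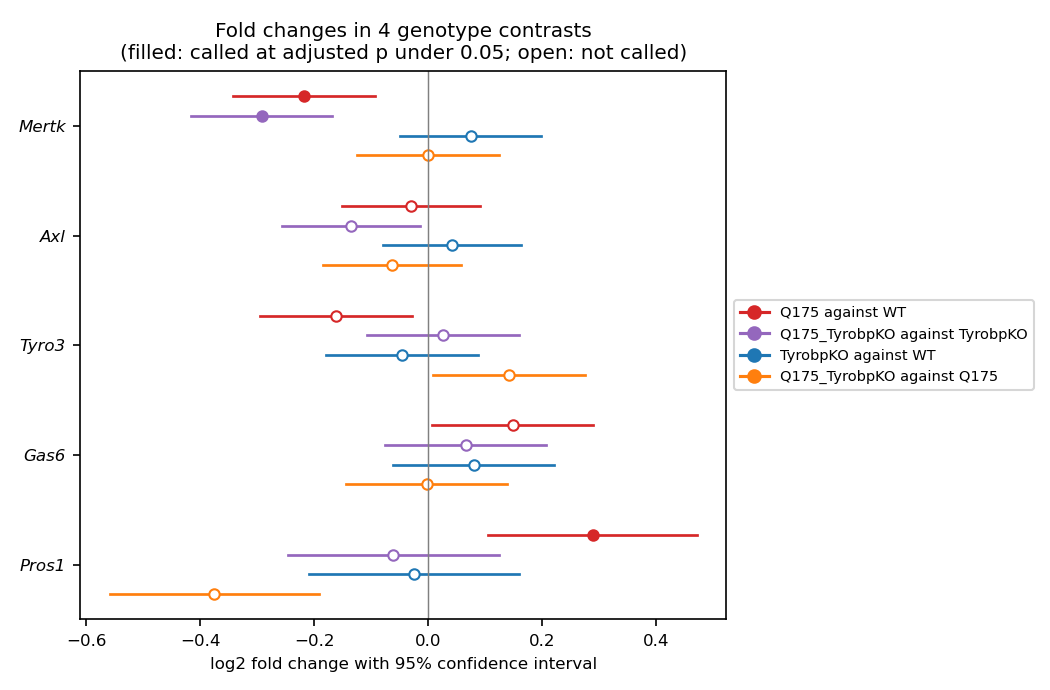
Log2 fold change of the 5 genes in 4 genotype comparisons, with 95% confidence intervals from the edgeR fit; filled points were called at an adjusted p under 0.05 and open points were not. Mertk is filled at -0.22 and -0.29 in both comparisons of the Q175 allele, and Pros1 is filled at 0.29 in Q175 against WT only.

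Females and males did not differ detectably in any of the 5 genes. The female against male log2 fold changes ran from -0.07 for Axl to 0.08 for Tyro3, all at edgeR adjusted p = 0.999, and 0 of 5 had an unadjusted p under 0.05, against 4.05% of all genes; DESeq2 and limma-voom also called 0. In all, 0.0814% of genes tested were called for sex. No genotype effect on a TAM gene was called different between the sexes. The lowest unadjusted p was that of Gas6 in Q175_TyrobpKO against TyrobpKO, at -0.08 in males and 0.21 in females on the log2 scale (difference 0.29 ± 0.13, edgeR unadjusted p = 0.0312, adjusted p = 0.960).

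Around the 5 genes stand the enzymes that carboxylate the ligands, the proteases that shed the receptors, the proteins downstream of them, other receptors and bridging proteins for phosphatidylserine, and the proteins that expose or hide it on the cell surface. Of 58 such genes listed, 55 were tested and Timd4, Havcr1 and Cd300lb were not. In Q175 against WT, 4 rose and 1 fell, which is 9.09% of the 55 and no more than the 9.63% of all genes. Their median log2 fold change was 0.05 against 0.01 over all genes. In Q175_TyrobpKO against TyrobpKO, 2 rose and 1 fell (5.45%, against 5.86% of all genes). By edgeR none was called in TyrobpKO against WT or in Q175_TyrobpKO against Q175, where 6 (10.9%) and 5 (9.09%) of the 55 had an unadjusted p under 0.05, against 6.45% and 6.04% of all genes, and DESeq2 and limma-voom called 0 in both.

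Ggcx, the carboxylase that activates Gas6 and Pros1, rose in Q175, from 19.2 ± 1.56 to 22.8 ± 1.80 CPM (log2 fold change 0.25 ± 0.07, edgeR adjusted p = 0.0178). In Q175_TyrobpKO against TyrobpKO it had 0.13 ± 0.07 (edgeR adjusted p = 0.305). The call was lost in 2 of the 24 fits without 1 library, and stood in 5 of the 9 fits with other settings. Vkorc1l1, which recycles vitamin K, had 0.07 in Q175 against WT (edgeR adjusted p = 0.520). There 1 of the 3 carboxylation genes was called (33.3%, against 9.63% of all genes). Of 4 shedding genes none was called: the sheddases Adam10 and Adam17 had 0.09 and -0.10 (edgeR adjusted p = 0.305 and 0.595), and Rhbdf1, which helps ADAM17 mature, had -0.04 (0.912).

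Among 21 downstream genes 1 was called in each comparison of the allele (4.76%, against 9.63% and 5.86% of all genes). Vav3, a guanine nucleotide exchange factor, rose from 11.005 ± 1.65 CPM in WT to 15.4 ± 1.44 CPM in Q175 (0.49 ± 0.14, edgeR adjusted p = 0.0195). From TyrobpKO to Q175_TyrobpKO it rose from 8.80 ± 1.54 to 13.1 ± 3.505 CPM (0.58 ± 0.14, edgeR adjusted p = 0.00904). The first of these calls was lost in 2 of the 24 fits without 1 library, and each stood in 7 of the 9 fits with other settings. Vav2, of the same family, had 0.12 in Q175 against WT (edgeR adjusted p = 0.543). The adaptor Bcar1 had 0.17 (0.0745), and Ifnar1, the interferon receptor chain that TAM receptors work with, had 0.12 (0.210).

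The other receptors and bridging proteins held 3 called genes of 17 tested in Q175 against WT (17.6%, against 9.63% of all genes). Mfge8, which links phosphatidylserine to integrins, fell from 121 ± 8.84 CPM in WT to 86.9 ± 14.3 CPM in Q175 (-0.47 ± 0.08, edgeR adjusted p = 0.000193). From TyrobpKO to Q175_TyrobpKO it fell from 119 ± 10.2 to 99.1 ± 4.31 CPM (-0.27 ± 0.08, edgeR adjusted p = 0.0401), a call that stood in 8 of the 24 fits without 1 library and in 5 of the 8 other settings that gave a value. Itgav, the integrin chain that receives Mfge8, rose in both comparisons of the allele, with log2 fold changes of 0.21 ± 0.05 and 0.23 ± 0.05 (edgeR adjusted p = 0.00823 and 0.00603); it was named after its values were seen. Lgals3, a lectin reported as a further Mertk ligand, rose in Q175 from 0.293 ± 0.140 to 0.970 ± 0.375 CPM (1.72 ± 0.39, edgeR adjusted p = 0.00431), and had 0.50 ± 0.39 in Q175_TyrobpKO against TyrobpKO (0.553). The engulfment adaptor Gulp1 had 0.41 in Q175 against WT (0.146). Of 10 genes of phosphatidylserine exposure none was called: the flippase Atp11a had 0.13 in Q175 against WT (edgeR adjusted p = 0.330), and the scramblase Xkr8 had -0.20 (0.402).

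**Figure D5:**
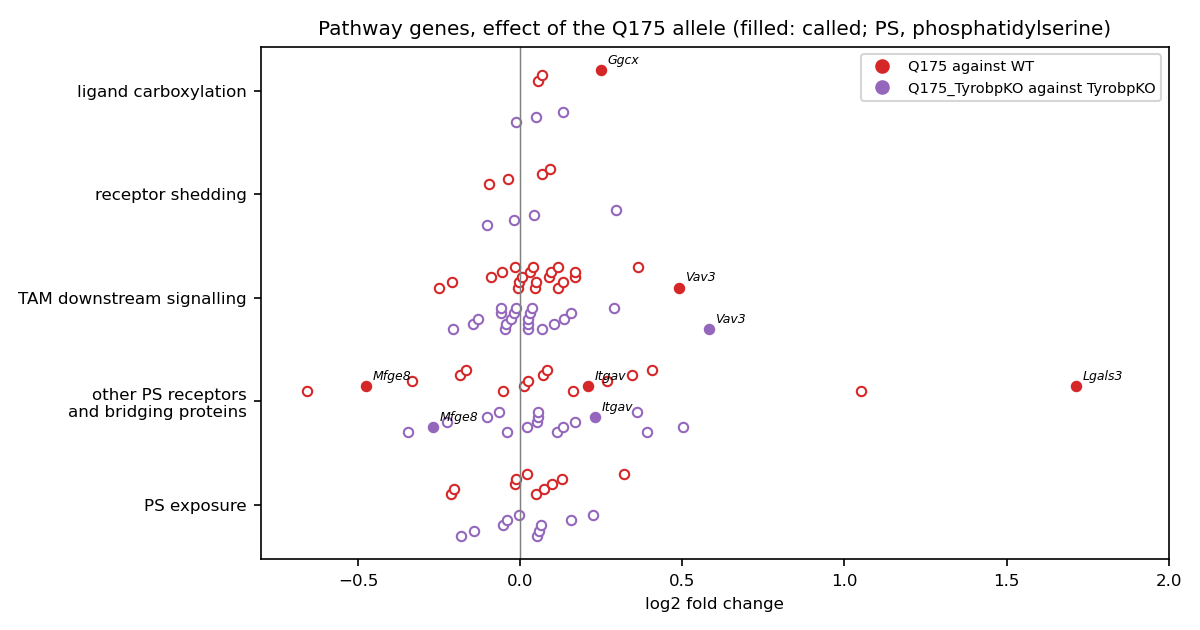
Log2 fold change of 55 pathway genes in the comparisons of the Q175 allele, by list; filled points were called at an adjusted p under 0.05 and carry the gene's symbol. In Q175 against WT, Ggcx, Vav3, Itgav and Lgals3 are filled to the right and Mfge8 to the left. In Q175_TyrobpKO against TyrobpKO, Vav3 and Itgav are filled to the right and Mfge8 to the left. All other points are open.

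Genes whose levels ran most like those of each TAM gene were taken as the 3 of highest Pearson correlation of log2(CPM + 0.5) among 15489 other genes, over 24 libraries that share genotype, depth and dissection. For Mertk these were Htra1, a secreted serine protease (r = 0.85), Fads1, a fatty acid desaturase (0.84), and Camk2n1, an inhibitor of CaMKII (0.84). All 3 were called lower in both comparisons of the Q175 allele, as were Mertk itself and 2.31% of all genes. They were picked over libraries that span the genotypes, so the choice itself favours genes that fall with Mertk. Once genotype and sex means were removed, their r was 0.61, 0.39 and 0.48. For Axl they were Vegfa (0.73), the transcription factor Zic4 (0.72) and the transporter Flvcr2 (0.71), and for Tyro3 Pdzd4 (0.85), Nat14 (0.84) and Fance (0.81). For Gas6 they were Whrn (0.86), Nhsl1 (0.83) and Igfbp2 (0.83), and for Pros1 1110059E24Rik (0.79), Laptm5, a lysosomal protein of blood cells and microglia (0.78), and Mpp5 (0.78). By Spearman correlation the largest drops were to 0.54 for Flvcr2 with Axl and to 0.68 for Igfbp2 with Gas6. The TAM genes themselves were less alike, the highest r between any of them being 0.51, for Mertk and Axl. It was 0.16 after genotype and sex means were removed, when the highest was 0.44, for Axl and its ligand Gas6 (0.07 before).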

How the data were processed

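RNA from the striatum of 24 mice was sequenced, and the authors deposited a table of raw counts that had not been scaled. The submitters' processing notes name STAR, featureCounts and DESeq2, and the human build GRCh38. The deposited mouse identifiers matched GENCODE M21 on GRCm38 instead (53499 of 54532 with the same start and end), so GRCm38 coordinates, counted from 1, are given. Use of strand is not given in the sources used here. Mertk overlaps Gm23172 (199 reads over all libraries) and Gm14011 (41), and Gas6 overlaps Tmem255b (832), against 25215 reads of Mertk and 53957 of Gas6.

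Counts were tested with edgeR 4.0.16 (R 4.3.3) by its quasi-likelihood test, with TMM scaling, filterByExpr on genotype, a robust fit and a term for sex, over all 24 libraries. Benjamini-Hochberg adjustment ran over 19667 genes, and an adjusted p under 0.05 is a call. CPM is TMM-scaled, and standard errors come from the test statistic. Replicate numbers follow accession order, males before females, and only name libraries. Of 60 pairs of libraries of the same genotype, none agreed within sampling noise. The labels name separate animals. Scripts were tested on simulated data.

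Alternatives were limma-voom 3.58.1, DESeq2 1.42.0, no TMM, no filter, no sex term, the compared libraries alone, one sex, no chromosome 7 genes but Axl, and each library left out. The members and lists were chosen with earlier results of these data known. Named were the 5 members, Tyrobp and Htt as label checks, 2 genes per pathway list by p for the Q175 allele (WT background) and 2 for the deletion (Q175 background), 3 genes most like each member, and the chromosome 7 neighbours of Axl. A gene that this rule names is not reported here. Htt fell by 0.46 and 0.34 on the log2 scale with the Q175 allele, Tyrobp present and deleted (edgeR adjusted p = 3.02e-06 and 0.000315).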

Additional observations from a re-analysis of the deposited data

Results flagged for a closer look

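Gas6 in Q175 replicate 3, at 102 CPM, lay far from the rest of its group: the gap to the next library, at 85.1 CPM, was 0.674 of the range of the group, above Dixon's 95% critical value of 0.625 for 6 samples. Of 20 groups examined this was the 1 that stood out, and chance gives about 1 in 20. The same library had 4100 CPM of choroid plexus and ependyma markers, and the part of those cells in the Gas6 value was not tested.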

How the results depend on the processing

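Of the alternative log2 fold changes of the 5 genes, 1381 kept direction and side of the threshold, 27 lost a call, 5 gained one and 37 reversed; the cause was not tested except where a setting holds fewer genes or libraries. Against 2 genes called in Q175 against WT, 1 was called without TMM (Mertk at edgeR adjusted p = 0.0648) or without the filter (Pros1 at 0.0948), 0 with the compared libraries alone (Mertk 0.0529, Pros1 0.0945), 0 in males, 0 in females, and 0 to 2 when a library was left out. In Q175_TyrobpKO against TyrobpKO, against 1, 0 were called in males and 0 in females, and 1 when a library was left out, with Mertk at edgeR adjusted p from 0.00321 to 0.0183. In Q175_TyrobpKO against Q175, against 0, DESeq2 called 1 and fits without a library 0 to 1. In Q175_TyrobpKO against WT, against 1, 0 were called without TMM, with the compared libraries alone, in males or in females, and 0 to 1 when a library was left out. For the averaged Q175 allele, against 1, 3 were called without TMM (Mertk, Gas6 at edgeR adjusted p = 0.0248 and Pros1 at 0.0482).

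Reversed log2 fold changes lay between -0.082 and 0.13. Without TMM they were 0.028 for Axl in Q175 against WT and 0.038 for Tyro3 in Q175_TyrobpKO against WT. In males they were -2.86e-05 for Tyro3 and -0.082 for Gas6 in Q175_TyrobpKO against TyrobpKO, -0.069 for Axl in TyrobpKO against WT, and -0.0095 for Gas6 in the averaged deletion. In females they were 0.017 for Tyro3 in TyrobpKO against WT, 0.0041 for Mertk and 0.13 for Gas6 in Q175_TyrobpKO against Q175, 0.068 for Tyro3 in Q175_TyrobpKO against WT, 0.059 for Axl in the averaged deletion and 0.11 for Gas6 in the interaction. In Q175_TyrobpKO against Q175, Mertk was 0.0034 and Gas6 0.0013 without the filter, and Mertk 0.00075 without chromosome 7. With a library left out, the ranges that crossed 0 were -0.076 to 0.018 for Pros1 and -0.0087 to 0.069 for Axl in TyrobpKO against WT, -0.026 to 0.021 for Mertk and -0.035 to 0.067 for Gas6 in Q175_TyrobpKO against Q175, -0.066 to 0.030 for Tyro3 in Q175_TyrobpKO against WT, -0.037 to 0.0034 for Axl in the averaged deletion and -0.026 to 0.027 for Gas6 in females against males.

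By the longest GENCODE M21 transcript in place of the exon length, an alternative chosen after seeing the data, the order stayed Tyro3 (55.2 CPM per kilobase), Gas6 (31.4), Axl (10.4), Mertk (8.69) and Pros1 (3.91). RefSeq transcript lengths were to be used as well, and were not run. No paired analysis was possible because the labels give no replicate numbers that tie animals across genotypes. Pros1, with at most 472 reads per library, was the gene of lowest depth.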
